A study of Mus musculus with 6 samples.

Results

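Serum amyloid A (Saa1, Saa2, Saa3 and Saa4), orosomucoid (Orm1, Orm2 and Orm3), lipocalin-2 (Lcn2), haptoglobin (Hp) and hemopexin (Hpx) genes were compared between livers of TLR3-/- and TLR3wt mice. These 10 genes were chosen by name, with earlier results of these data known. Each had 1 probe set with a single gene symbol, among 19938 genes with such a probe set. Total liver RNA of 3 TLR3-/- mice and 3 TLR3wt mice was measured on 1 Affymetrix array per mouse. The mice of both groups were untreated, 3 months old and bred under specific-pathogen-free conditions. The series gives the C57Bl/6 background for the comparison, while the individual labels of the TLR3-/- livers name no strain. How the TLR3-/- allele was made and the sex of the mice were not given in the sources used here.

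TLR3 is a receptor for double-stranded RNA in endosomes. The proteins described here are secreted, and the liver raises the output of most of them during inflammation, a programme called the acute-phase response. Interleukin-6 acts through STAT3 and interleukin-1 through NF-kappaB and C/EBP factors to raise their transcription in hepatocytes. The comparison asks what level this programme has in the untreated liver with and without TLR3.

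Values are log2 RMA signals, with a floor at exactly 5 in the deposited table. The Tlr3 probe set stood at 5 in all 3 TLR3-/- and all 3 TLR3wt livers, so it gave no check of the genotype labels. The 7 measured hepatocyte markers had array means of 12.005 to 12.04 in TLR3-/- and 12.01 to 12.13 in TLR3wt livers. TLR3wt replicate 3 stood apart from its group on the second principal component of 16639 probe sets (-17.6, against 14.5 and 11.1 in TLR3wt replicates 1 and 2). The difference of each measured gene of the 10 is therefore also given without that mouse. In the limma fit, 31 of 16639 tested probe sets (0.186%) had an adjusted p under 0.05, of which 23 were higher and 8 lower with TLR3-/-. That count was 0 with all 35557 probe sets entered, and the split was 8 higher and 6 lower with each array centred on its median.

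Of the 10 genes, 8 had a lower mean in TLR3-/- livers (41.2% of all tested probe sets did), Saa4 had a higher mean and Orm3 was at the floor on all 6 arrays. None of the 9 tested genes passed limma (0 of 9, adjusted p 0.181 to 0.676), against 0.186% of all tested probe sets. At an unadjusted p under 0.05, 5 were lower (Saa3, Orm1, Orm2, Lcn2 and Hpx), against 5.25% of all tested probe sets in that direction. The median log2 difference of the 9 genes, TLR3-/- minus TLR3wt, was -1.30, and the median over all tested probe sets was 0.028. In 6 of the 9 genes every TLR3-/- liver lay below every TLR3wt liver, against 7.04% of all tested probe sets. The 9 genes are not separate cases in these counts, since most of them ordered the mice alike within each group. Without TLR3wt replicate 3 the same 8 genes kept a lower mean, the median was -0.79, and 0 passed (smallest limma adjusted p 0.129). With 3 mice against 3 the exact two-sided permutation test cannot give a p below 0.1. RNA came from whole liver, so fewer cells of a type and less RNA per cell cannot be told apart.

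**Figure D1:**
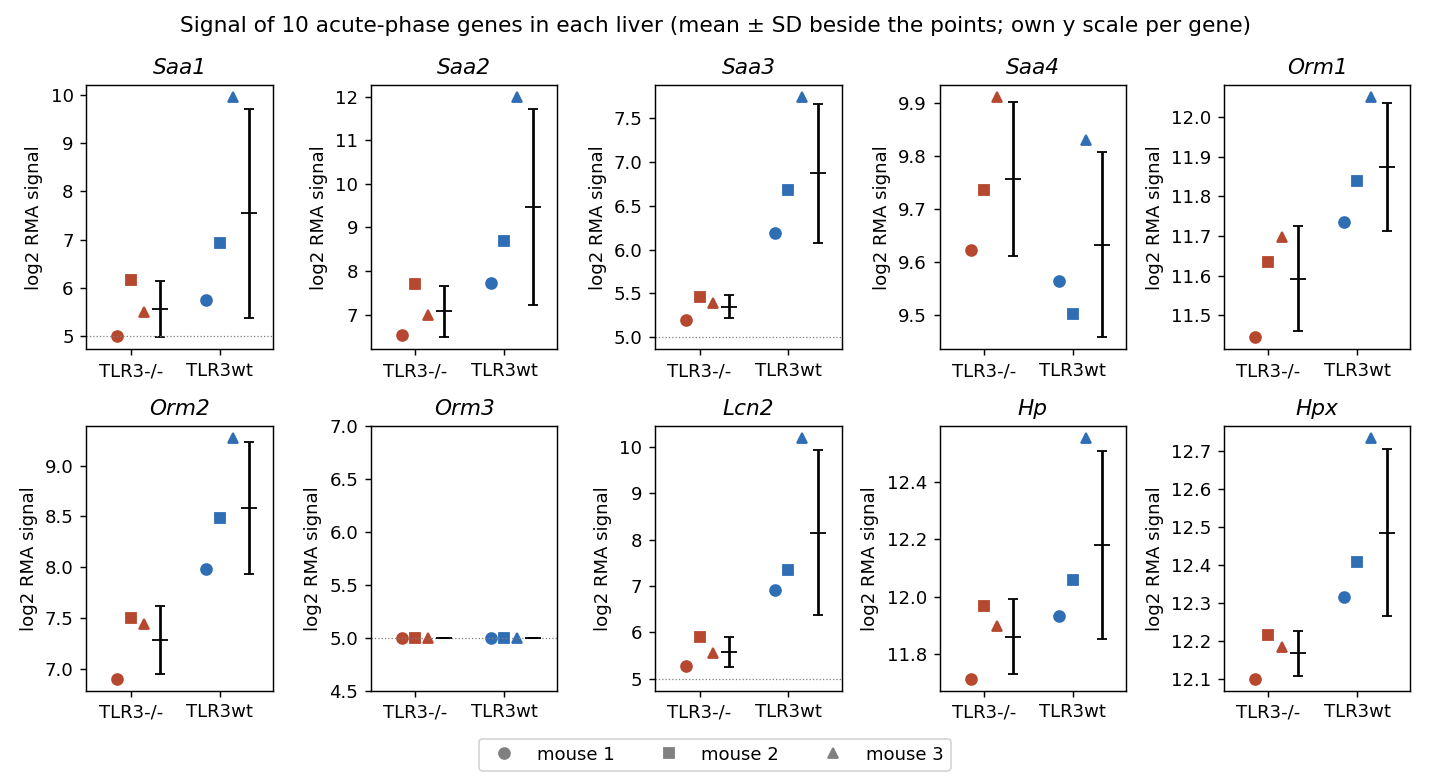
Log2 RMA signal of the 10 genes in each liver, TLR3-/- on the left and TLR3wt on the right of each panel; symbols mark the mouse number, bars the mean ± SD (n = 3), and the dotted line the floor of 5 where it lies in range. Each panel has its own y scale. TLR3wt replicate 3 is the highest of the 6 livers in every measured gene except Saa4, and the groups do not overlap in Saa2, Saa3, Orm1, Orm2, Lcn2 and Hpx.

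The 4 serum amyloid A genes lie next to each other among the coding genes of chromosome 7, in the order Saa3, Saa4, Saa1, Saa2. Saa1 and Saa2 encode the acute-phase forms of serum amyloid A, apolipoproteins carried on high-density lipoprotein. Their promoter windows, from 250 bases before to 50 bases after the start, are shown because both genes ranked the mice within each group alike. They come from RefSeq (GRCm38.p6: Saa1 chr7:46742931-46743230, minus strand; Saa2 chr7:46751583-46751882, plus strand), written 5′ to 3′ along the gene. Capitals mark matches of the C/EBP motif TTNNGNAA on either strand.
Saa1: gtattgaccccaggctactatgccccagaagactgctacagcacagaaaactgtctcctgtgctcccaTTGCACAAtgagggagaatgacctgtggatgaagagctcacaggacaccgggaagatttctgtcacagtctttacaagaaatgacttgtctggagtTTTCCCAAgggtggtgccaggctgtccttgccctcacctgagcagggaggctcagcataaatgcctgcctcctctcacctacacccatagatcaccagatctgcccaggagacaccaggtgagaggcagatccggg
Saa2: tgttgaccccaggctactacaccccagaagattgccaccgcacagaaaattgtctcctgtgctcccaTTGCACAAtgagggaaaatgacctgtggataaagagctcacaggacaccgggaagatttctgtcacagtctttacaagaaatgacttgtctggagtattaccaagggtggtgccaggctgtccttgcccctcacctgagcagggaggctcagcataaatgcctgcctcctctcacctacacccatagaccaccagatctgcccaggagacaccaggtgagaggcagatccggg

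These windows were identical in 95.3% of 301 aligned positions. Both held the C/EBP match TTGCACAA, starting at position -182 in Saa1 and -183 in Saa2 relative to the start, and Saa1 had a further match, TTTCCCAA, at -86. The names follow gene identifiers, since older names of Saa1 and Saa2 are exchanged. Transcripts of close copies, here and among the Orm genes, can share probe signal, and this was not tested.

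Saa2 (probe set 10553274) had 6.53, 7.71 and 6.98 in TLR3-/- livers, against 7.72, 8.68 and 11.998 in TLR3wt livers. TLR3wt replicate 3 was far above the other livers, and the highest TLR3-/- and lowest TLR3wt livers were only 0.016 apart. The signal was 5.27-fold lower in TLR3-/- livers (log2 difference -2.40, SE 1.08; limma adjusted p = 0.375; exact permutation p = 0.1). Without TLR3wt replicate 3 the log2 difference was -1.13 (limma adjusted p = 0.358).

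Saa1 (10563611) had 5 (the floor), 6.16 and 5.50 in TLR3-/- livers, against 5.76, 6.93 and 9.96 in TLR3wt livers. The groups overlapped, with TLR3-/- replicate 2 above TLR3wt replicate 1. The value at the floor can understate the difference. That log2 difference was -2.00 (SE 1.04; limma adjusted p = 0.437; exact permutation p = 0.2), or -0.79 without TLR3wt replicate 3 (limma adjusted p = 0.546).

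Saa3 encodes a serum amyloid A made largely outside hepatocytes in mice, in macrophages and adipose tissue among others. Saa4 encodes the constitutive serum amyloid A. Their windows are shown together because the group differences of these neighbours had opposite signs, that of Saa4 being small and with overlapping groups (GRCm38.p6: Saa3 chr7:46715627-46715926, minus strand; Saa4 chr7:46732554-46732853, minus strand; capitals again mark C/EBP matches).
Saa3: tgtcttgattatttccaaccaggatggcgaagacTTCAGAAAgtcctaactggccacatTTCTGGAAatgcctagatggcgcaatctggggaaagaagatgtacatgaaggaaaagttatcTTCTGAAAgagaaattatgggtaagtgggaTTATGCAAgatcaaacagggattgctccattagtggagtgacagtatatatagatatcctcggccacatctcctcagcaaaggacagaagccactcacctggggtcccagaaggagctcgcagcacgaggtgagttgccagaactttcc
Saa4: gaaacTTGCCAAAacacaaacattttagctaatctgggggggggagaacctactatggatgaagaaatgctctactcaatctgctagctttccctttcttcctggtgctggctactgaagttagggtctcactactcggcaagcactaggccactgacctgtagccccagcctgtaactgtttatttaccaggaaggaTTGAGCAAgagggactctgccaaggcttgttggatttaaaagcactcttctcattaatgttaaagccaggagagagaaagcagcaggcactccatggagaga

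Saa3 held 4 C/EBP matches and Saa4 held 2, at -245 and -52. The 2 windows were identical in 42.7% of aligned positions. Saa3 (10563597) had 5.20, 5.46 and 5.39 in TLR3-/- livers, all close to the floor, against 6.19, 6.68 and 7.74 in TLR3wt livers. The groups were separated by 0.73 on the log2 scale. The signal was 2.87-fold lower in TLR3-/- livers (log2 difference -1.52, SE 0.38; limma adjusted p = 0.181; exact permutation p = 0.1). Without TLR3wt replicate 3 the log2 difference was -1.08 (limma adjusted p = 0.157).

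Cell types that can make Saa3 were read from their markers. All 11 macrophage and Kupffer cell markers were lower in TLR3-/- livers without overlap between the groups, against 7.04% of all tested probe sets, and 0 of 11 passed limma (11 at an unadjusted p under 0.05, against 5.25% of all tested probe sets in that direction). The mean log2 level of the markers was 6.36 to 6.96 in TLR3-/- and 7.34 to 7.80 in TLR3wt livers. None of these markers was at the floor on all arrays. The median log2 difference of the markers was -0.88, or -0.90 without TLR3wt replicate 3, with Timd4 at -0.90, Adgre1 at -1.00 and Marco at -1.08. The macrophage receptor gene Cd163, held in another list and chosen after its values were seen, had overlapping groups. Its log2 difference was 0.11, or -0.30 without TLR3wt replicate 3 (limma adjusted p with all mice = 0.926). All 4 adipocyte markers with a probe set of 1 symbol (Adipoq, Plin1, Lep and Retn) were at the floor on all 6 arrays. The part of macrophage content in the Saa3 difference was not tested.

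Saa4 (10563602) had 9.62, 9.74 and 9.91 in TLR3-/- livers, against 9.57, 9.50 and 9.83 in TLR3wt livers. The groups overlapped, with TLR3-/- replicate 3 the highest of the 6 and TLR3wt replicate 2 the lowest. The log2 difference was 0.12 (SE 0.12; limma adjusted p = 0.676; exact permutation p = 0.4), and 0.22 without TLR3wt replicate 3 (limma adjusted p = 0.433). Saa4 thus differed less between livers than its 3 neighbours, with a range of 0.41 over the 6 livers, against 4.96 for Saa1, 5.47 for Saa2 and 2.54 for Saa3 on the log2 scale.

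The orosomucoids, or alpha-1-acid glycoproteins, are plasma proteins that bind basic and neutral drugs and modulate inflammation. The 3 mouse genes lie side by side on chromosome 4 in the order Orm1, Orm3, Orm2. The windows of Orm2 and Orm3 are shown because only Orm2 of the pair was above the floor (GRCm38.p6: Orm2 chr4:63362199-63362498, plus strand; Orm3 chr4:63355908-63356207, plus strand; capitals mark C/EBP matches).
Orm2: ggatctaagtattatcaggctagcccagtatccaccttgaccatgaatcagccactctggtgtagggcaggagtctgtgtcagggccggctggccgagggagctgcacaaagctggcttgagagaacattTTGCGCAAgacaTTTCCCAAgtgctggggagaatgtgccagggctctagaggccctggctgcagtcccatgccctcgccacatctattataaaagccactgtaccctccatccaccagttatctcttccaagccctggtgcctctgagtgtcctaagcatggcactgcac
Orm3: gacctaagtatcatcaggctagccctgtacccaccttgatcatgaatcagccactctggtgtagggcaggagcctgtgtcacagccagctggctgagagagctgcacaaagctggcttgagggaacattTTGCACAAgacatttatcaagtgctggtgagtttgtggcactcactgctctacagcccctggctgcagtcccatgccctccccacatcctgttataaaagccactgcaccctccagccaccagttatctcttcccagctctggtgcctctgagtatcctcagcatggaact

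The Orm2 and Orm3 windows were identical in 86.2% of 305 aligned positions. Orm2 held the palindromic C/EBP match TTGCGCAA at -120 and a further match at -108, where Orm3 held TTGCACAA at -121 alone. Both held TATAAA, at -33 in Orm2 and -29 in Orm3. The Orm3 probe set (10505445) stood at 5 in all 3 TLR3-/- and all 3 TLR3wt livers, and no difference could be given for it.

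Orm2 (10505451) had 6.90, 7.50 and 7.44 in TLR3-/- livers, against 7.98, 8.49 and 9.27 in TLR3wt livers. The groups were separated by 0.48 on the log2 scale. The signal was 2.46-fold lower in TLR3-/- livers (log2 difference -1.30, SE 0.34; limma adjusted p = 0.194; exact permutation p = 0.1). Without TLR3wt replicate 3 the log2 difference was -0.95 (limma adjusted p = 0.219), so the gene kept most of its difference without that mouse.

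Orm1 (10505438) had 11.44, 11.63 and 11.70 in TLR3-/- livers, against 11.73, 11.84 and 12.05 in TLR3wt livers. The groups did not overlap, with a gap of only 0.036. The signal was 1.22-fold lower in TLR3-/- livers (log2 difference -0.28, SE 0.11; limma adjusted p = 0.310; exact permutation p = 0.1), and the log2 difference was -0.19 without TLR3wt replicate 3 (limma adjusted p = 0.480).

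Lipocalin-2 binds bacterial siderophores and so withholds iron from bacteria. It is made by hepatocytes in the acute phase and is also stored in neutrophil granules. Its promoter window is shown because Lcn2 had the widest gap between the groups among the 9 genes (GRCm38.p6, chr2:32387690-32387989, minus strand; capitals mark the C/EBP match).
Lcn2: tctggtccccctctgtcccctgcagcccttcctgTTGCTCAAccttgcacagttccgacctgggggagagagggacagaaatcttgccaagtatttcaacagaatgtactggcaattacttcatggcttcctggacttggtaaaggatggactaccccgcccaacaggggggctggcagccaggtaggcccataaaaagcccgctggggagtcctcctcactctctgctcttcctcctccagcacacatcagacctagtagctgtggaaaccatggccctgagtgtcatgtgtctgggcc

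Lcn2 (10481627) had 5.26, 5.90 and 5.55 in TLR3-/- livers, against 6.92, 7.34 and 10.19 in TLR3wt livers. Every TLR3wt liver was above every TLR3-/- liver, and the nearest livers of the groups were 1.02 apart on the log2 scale. TLR3wt replicate 3 was again far above the rest. The signal was 5.99-fold lower in TLR3-/- livers (log2 difference -2.58, SE 0.84; limma adjusted p = 0.258; exact permutation p = 0.1). Without TLR3wt replicate 3 the log2 difference was -1.56 (limma adjusted p = 0.129), the largest among the 9 genes in that comparison. All 12 neutrophil markers, among them S100a8, S100a9, Ltf, Camp and Mpo, were at the floor in all 6 livers.

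Haptoglobin binds free haemoglobin and hemopexin binds free haem in plasma, and both carry their cargo to receptors for clearance. Hp (10581605) had 11.72, 11.97 and 11.90 in TLR3-/- livers, against 11.93, 12.06 and 12.55 in TLR3wt livers. TLR3-/- replicate 2 lay just above TLR3wt replicate 1, so the groups overlapped. The log2 difference was -0.32 (SE 0.17; limma adjusted p = 0.447; exact permutation p = 0.2), and -0.13 without TLR3wt replicate 3 (limma adjusted p = 0.634).

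Hpx (10566477) had 12.10, 12.21 and 12.18 in TLR3-/- livers, against 12.31, 12.41 and 12.73 in TLR3wt livers. The groups did not overlap, with a gap of 0.10. The signal was 1.25-fold lower in TLR3-/- livers (log2 difference -0.32, SE 0.12; limma adjusted p = 0.294; exact permutation p = 0.1). The log2 difference was -0.19 without TLR3wt replicate 3 (limma adjusted p = 0.343).

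**Figure D2:**
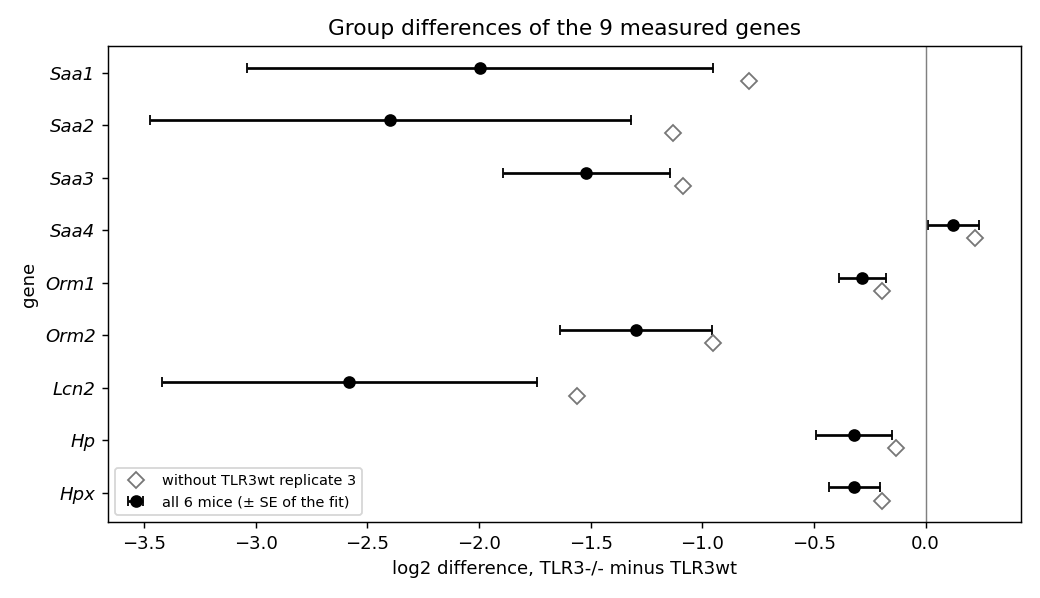
Log2 difference (TLR3-/- minus TLR3wt) of the 9 measured genes, on the x axis, with all 6 mice (filled, ± SE of the limma fit) and without TLR3wt replicate 3 (open). Lcn2, Saa2, Saa1, Saa3 and Orm2 lie between -2.58 and -1.30 with all mice and between -1.56 and -0.79 without that mouse, while Saa4 lies above 0 in both.

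Within each genotype most of the genes ordered the mice alike, with Saa4 and Orm1 as exceptions. TLR3wt replicate 3 was the highest TLR3wt liver in 9 of 9 genes and the highest of all 6 in 8, where 15.8% of all tested probe sets had it highest. TLR3-/- replicate 1 was the lowest TLR3-/- liver in 9 of 9 genes and the lowest of all 6 in 8, where 11.7% of all tested probe sets had it lowest. TLR3-/- replicate 2 was the highest of its group in 7 genes, the exceptions being Saa4 and Orm1. Averaged over the 9 genes, the deviation from a gene's own mean was -0.86, -0.36 and -0.55 (log2) for the 3 TLR3-/- mice in order of their numbers, and -0.15, 0.27 and 1.65 for the 3 TLR3wt mice.

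**Figure D3:**
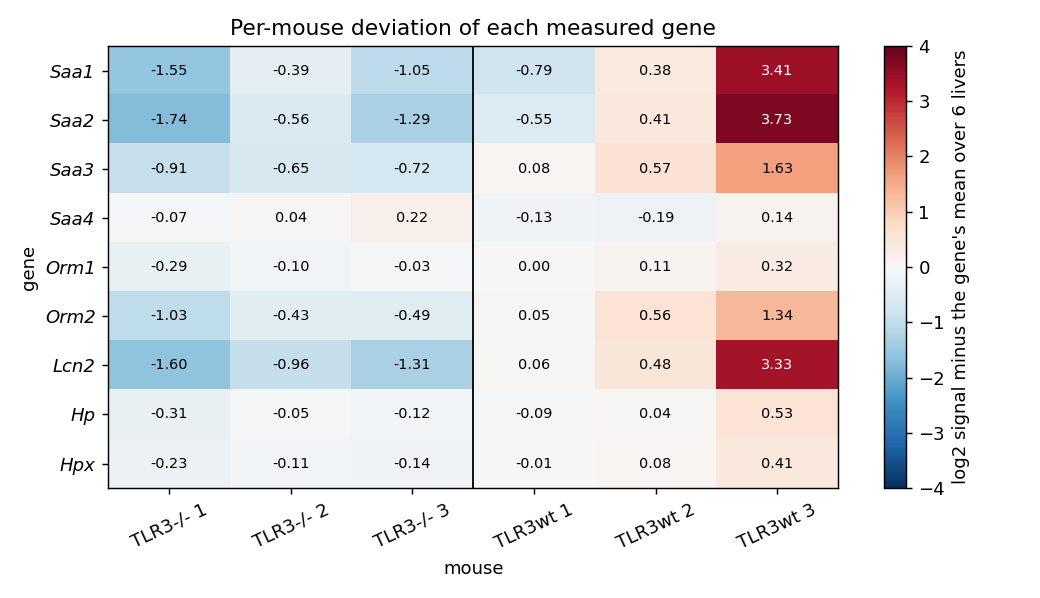
Log2 signal of each measured gene minus its own mean over the 6 livers, by mouse, with TLR3-/- livers left of the line. The TLR3wt replicate 3 column holds values of 3.33 to 3.73 for Lcn2, Saa1 and Saa2 and of 0.32 to 0.53 for Orm1, Hp and Hpx.

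The spread between mice was larger in TLR3wt than in TLR3-/- livers for 9 of 9 genes, where 51.8% of all tested probe sets had the larger SD in TLR3wt livers. The SD of Saa2 was 0.59 in TLR3-/- and 2.24 in TLR3wt livers, that of Saa1 0.58 and 2.17, and that of Lcn2 0.32 and 1.78 (log2, n = 3 each). In TLR3wt livers these 3 genes ranked 2, 3 and 6 by SD among all 16639 tested probe sets. In TLR3-/- livers Saa2 and Saa1 ranked 84 and 89 and Lcn2 ranked 751. The SDs were close for Saa4 (0.15 in TLR3-/- and 0.17 in TLR3wt livers) and Orm1 (0.13 and 0.16). TLR3wt replicate 3 lay above the mean of TLR3wt replicates 1 and 2 by 3.80 for Saa2, 3.61 for Saa1 and 3.06 for Lcn2. For the rest of the 9 genes it lay above by 0.26 (Orm1) to 1.30 (Saa3). TLR3wt replicates 1 and 2 alone had 6.92 and 7.34 for Lcn2, 11.93 and 12.06 for Hp, 11.73 and 11.84 for Orm1, and 9.57 and 9.50 for Saa4. Over the 3 TLR3-/- livers these genes had ranges of 0.64, 0.25, 0.25 and 0.29. For Saa1 and Saa2 the TLR3wt pair was further apart (5.76 and 6.93, 7.72 and 8.68). The part of that mouse in the larger spread was not tested, so the spread cannot be read as a trait of the TLR3wt group. Saa1, Saa3 and Lcn2 lay close to the floor in TLR3-/- livers, which can narrow their SD there.

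Promoter windows were found for 8 of the 10 genes, Orm1 and Hp being the others. The C/EBP motif TTNNGNAA, on both strands, matched all 8 windows, against 40.7% of 32851 mouse promoter windows of the same length. The 8 windows are not separate cases, since those of Saa1 and Saa2 were 95.3% identical and those of Orm2 and Orm3 86.2%. The STAT3 motif TTCNNNGAA and an NF-kappaB motif (GGG, 2 free bases, TTTCC) matched 0 of the 8, against 8.30% and 1.63% of all windows. TATAAA matched 2 of the 8, against 13.6%. Both strands were searched for each motif, and a match describes only letters in a 300-base window.

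Other genes of the acute phase were described from a list of 26, of which 20 were tested and 4 (Cd14, Il1rn, A2m and Ptx3) were at the floor on all arrays. Of the 20, 18 had a lower mean in TLR3-/- livers (41.2% of all tested probe sets did), with a median log2 difference of -0.14. The groups did not overlap in 4 that were lower, against 7.04% of all tested probe sets. In limma 2 had an unadjusted p under 0.05, against 14.5% in either direction. The 1 gene that passed was Hamp, the gene of the iron hormone hepcidin, which rose. It had 10.26, 10.43 and 10.56 in TLR3-/- livers, against 7.85, 7.25 and 8.42 in TLR3wt livers, a log2 difference of 2.57, or 2.86 without TLR3wt replicate 3 (with all mice SE 0.28; limma adjusted p = 0.0465). In that direction 0.138% of all tested probe sets passed. Every TLR3-/- liver lay above every TLR3wt liver, as in 13.0% of all tested probe sets. Its direction was opposite to that of Lcn2, Saa1, Saa2, Saa3, Orm1, Orm2, Hp and Hpx. The call held without TLR3wt replicate 3 (limma adjusted p = 0.0268) but was lost without TLR3wt replicate 1 or 2 or TLR3-/- replicate 1, 2 or 3 (0.0986 to 0.202). It was also lost after quantile normalisation again (0.0596), with centred arrays (0.0516), with identical probe sets entered once (0.0660), with a replicate block (0.155) and with all probe sets entered (0.410).

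TLR3wt replicate 3 was the highest of the 6 livers in 18 of these 20 genes, against 15.8% of all tested probe sets. Without it, 10 of the 20 had a lower mean in TLR3-/- livers and 10 a higher mean, with a median of 0.0046. The next values were chosen after they were seen. Serum amyloid P, encoded by Apcs, had 8.37, 7.80 and 8.01 in TLR3-/- livers, against 8.65, 8.50 and 10.19 in TLR3wt livers, a log2 difference of -1.05, or -0.51 without that mouse. Lbp, which encodes lipopolysaccharide-binding protein, had a log2 difference of -0.31, or 0.050 without it. Lrg1, which encodes leucine-rich alpha-2-glycoprotein, had -0.42, or -0.037 without it. The metallothionein genes Mt1 and Mt2 had -1.98 and -2.27, or -1.07 and -0.92 without it.

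**Figure D4:**
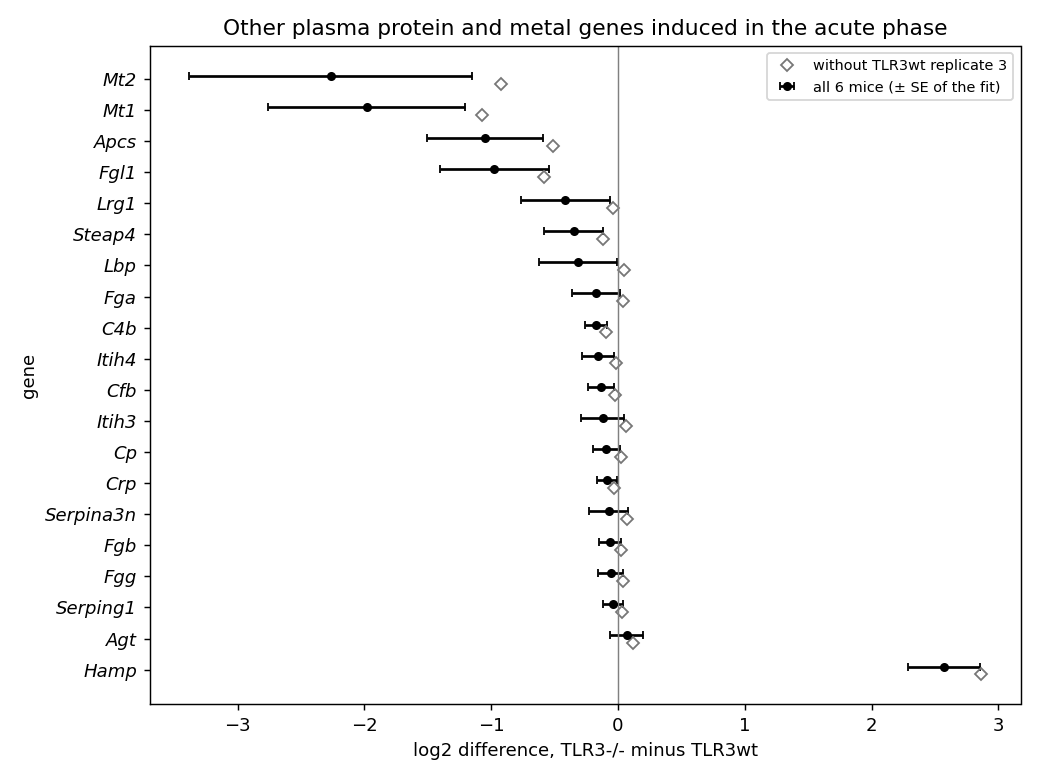
Log2 difference (TLR3-/- minus TLR3wt, x axis) of 20 other genes induced in the acute phase, with all 6 mice (filled, ± SE of the limma fit) and without TLR3wt replicate 3 (open). Hamp lies at 2.57, and 10 of the 20 genes lie above 0 without that mouse, against 2 with all mice.

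Upstream of these genes, 22 of 32 listed cytokine, receptor, kinase and transcription factor genes were tested, 13 with a lower and 9 with a higher mean in TLR3-/- livers (median -0.029, or 0.0075 without TLR3wt replicate 3), and 0 passed limma (4 at an unadjusted p under 0.05, against 14.5% of all tested probe sets in either direction). The cytokine genes Il6, Il1a, Tnf, Osm and Lif were at the floor on all 6 arrays. Il1b, which encodes interleukin-1 beta, was at the floor in all 3 TLR3-/- livers and had 5.59, 5.71 and 6.24 in TLR3wt livers, at least 1.80-fold lower in TLR3-/- livers (limma adjusted p = 0.141). Il6ra, the gene of the interleukin-6 receptor, had 7.42, 7.28 and 7.46 in TLR3-/- livers, against 7.64, 8.17 and 8.15 in TLR3wt livers (log2 difference -0.60, or -0.52 without TLR3wt replicate 3; limma adjusted p with all mice = 0.187). Of the 22 genes, 5 were lower without overlap between the groups, Il1b and Il6ra among them, against 7.04% of all tested probe sets. Another 4 were higher without overlap, against 13.0%.

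Cebpb, which encodes a C/EBP factor of the acute phase, had 7.61, 7.31 and 7.42 in TLR3-/- livers, against 8.24, 8.54 and 7.70 in TLR3wt livers (log2 difference -0.71, or -0.94 without TLR3wt replicate 3; limma adjusted p with all mice = 0.232). TLR3wt replicate 3, the highest liver for Lcn2 and for Saa1 to Saa3, was the lowest TLR3wt liver for Cebpb. This is 1 mouse, and a link between Cebpb and those genes was not tested. Stat3 and its feedback inhibitor gene Socs3, chosen after their values were seen, had log2 differences of -0.024 and -0.10, with overlapping groups, or 0.11 and 0.012 without that mouse.

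Of 18 genes for receptors and partners of the secreted proteins, 14 were tested, 9 with a lower and 5 with a higher mean in TLR3-/- livers (median -0.021), and 0 passed limma (3 at an unadjusted p under 0.05, against 14.5% of all tested probe sets). Tlr2, a receptor reported to bind serum amyloid A, had 5.21, 5.07 and 5.19 in TLR3-/- livers, against 5.55, 5.54 and 5.57 in TLR3wt livers (log2 difference -0.39, or -0.38 without TLR3wt replicate 3; limma adjusted p with all mice = 0.0990). Hmox1, which encodes the haem-degrading enzyme heme oxygenase 1, had 6.48, 6.36 and 6.48 in TLR3-/- livers, against 6.70, 7.30 and 7.31 in TLR3wt livers (log2 difference -0.66, or -0.56 without that mouse; limma adjusted p with all mice = 0.188). The scavenger receptor gene Cd36 had a log2 difference of -0.28, or -0.26 without that mouse (limma adjusted p with all mice = 0.212). Cd163, the macrophage receptor for haptoglobin bound to haemoglobin and chosen after its values were seen, had 6.31, 5.92 and 6.33 in TLR3-/- livers, against 6.17, 6.81 and 5.27 in TLR3wt livers. The groups overlapped, with a log2 difference of 0.11, or -0.30 without TLR3wt replicate 3 (limma adjusted p with all mice = 0.926). TLR3wt replicate 3, highest for Hp, was lowest for Cd163.

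Genes with the per-mouse pattern closest to the mean of the 9 were ranked by the root mean square difference of centred log2 values over the 6 livers, among 10338 other genes. The closest were Slc10a2 (0.24), a bile acid transporter gene, Abhd2 (0.26), a hydrolase gene, and Cyp17a1 (0.28), a steroid hydroxylase gene, followed by Slc3a1, Sgk1, Tent5c, Nipal1 and Fgl1 (0.33 to 0.35), where the median gene was at 0.83. The 9 genes, which are part of that mean, lay at 0.21 (Orm2 and Saa3), 0.56 (Hp), 0.61 (Hpx), 0.64 (Orm1), 0.80 (Saa4), 0.84 (Saa1), 0.86 (Lcn2) and 0.99 (Saa2). The root mean square difference counts the size of deviations as well as the order of the mice. Saa1, Lcn2 and Saa2 lay above the median gene, although within each group they ordered the mice as the mean did. Their deviations in TLR3wt replicate 3 were 3.41, 3.33 and 3.73, against 1.65 in the mean. Nipal1 was above the floor only in TLR3wt replicate 3. The closest genes were picked for likeness to a mean in which every TLR3-/- liver lay below every TLR3wt liver. Lower means and a lack of overlap in them therefore follow in part from that choice. Slc10a2 had 6.16, 6.48 and 6.00 in TLR3-/- livers, against 6.83, 7.25 and 8.03 in TLR3wt livers, without overlap (log2 difference -1.16, or -0.83 without TLR3wt replicate 3; limma adjusted p with all mice = 0.196). Cyp17a1 had 5.24, 5.33 and 5.39 in TLR3-/- livers, against 5.99, 5.86 and 8.05 in TLR3wt livers (log2 difference -1.31, or -0.60 without that mouse; limma adjusted p with all mice = 0.366).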

How the data were processed

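Liver RNA of 3 TLR3-/- and 3 TLR3wt mice was hybridised to 1 array per mouse, and groups were taken from sample titles. The deposited log2 values come from RMA, run by the authors in Affymetrix Expression Console (submitters' processing notes), and were not rescaled. The deposited table holds 35557 probe sets with a floor of 5, and 57.2% to 57.6% of an array's values stood at it. The origin of the floor was not given in the sources used here. There were 0 columns of other samples in it. The number of arrays limits the precision.

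The test was limma 3.58.1 under R 4.3.3 (lmFit, eBayes, two-sided, Benjamini-Hochberg over all tested probe sets, threshold 0.05), on probe sets above the floor in at least 1 liver, which omitted 18918. Probe sets with several symbols (1621) or none (12147) were not named. A gene was read from the probe set with the highest mean. Symbols were updated through gene identifiers to the RefSeq table of GRCm38.p6, which held 99.6% of them. The procedure was tested on simulated data.

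The genes, lists and tests were chosen with earlier results of these data known. The rule for names took all 10 genes, of each list up to 4 passing genes, or 3 by smallest unadjusted p where none passed, and the 8 genes closest in pattern. Promoter sequences are RefSeq's (GRCm38.p6), aligned globally with Biopython 1.88. A planned comparison of protein sequences was not run. Alternatives covered the floor filter, normalisation, variance model, array weights, identical probe sets, a replicate block and each mouse left out.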

Additional observations from a re-analysis of the deposited data

How the results depend on the processing

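Each of the 9 tested genes kept its direction under all alternatives run, and 0 of 9 passed under any of them (limma adjusted p 0.127 to 0.901). The median log2 difference was -1.60 to -0.79 in the fits without 1 mouse and -0.81 with only probe sets above the floor in every liver, which leaves out Saa1. Saa1 itself was -2.89 to -0.79 and Lcn2 -3.20 to -1.56 without 1 mouse. The count of 31 passing probe sets was 0 with all probe sets entered (2018 at an unadjusted p under 0.05), 18 with only those above the floor in every liver, 9 after quantile normalisation again, 14 with centred arrays, 3 with identical probe sets entered once, and 0 to 13 without 1 mouse. That count was 35 with a trended and robust variance model and 35 with array weights. The cause of these changes was not tested. The call of Hamp among the other acute-phase genes gave counts of 0 to 1 without 1 mouse. The labels do not say whether mice of the same replicate number were paired. Correlations of same-numbered deviations were 0.048, -0.012 and -0.063, which cannot decide it with 3 mice per group. With the replicate block 4 probe sets and 0 of the 9 genes passed. Genes close to the floor, such as Saa1, Saa3 and Lcn2 in TLR3-/- livers, can have understated differences.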

Other observations

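Plasma protein genes known to fall in the acute phase were described from a list of 17. Its 16 measured genes were all tested, 6 with a lower and 10 with a higher mean in TLR3-/- livers (median log2 difference 0.043), and 0 passed limma (0 at an unadjusted p under 0.05, against 14.5% of all tested probe sets). Rbp4, which encodes the retinol carrier of plasma, had 12.30, 12.36 and 12.29 in TLR3-/- livers, against 12.23, 12.21 and 12.14 in TLR3wt livers. Proc, the gene of the anticoagulant protein C, and Fetub, the gene of fetuin-B, each had a log2 difference of 0.12. The groups did not overlap in 4 of the 16 that were higher (Rbp4, Proc, Fetub and F12, against 13.0% of all tested probe sets) and 2 that were lower (Apoa1 and Trf, against 7.04%), of which F12, Apoa1 and Trf were chosen after their values were seen. TLR3wt replicate 3 was the lowest liver for Rbp4 but not for Proc or Fetub.

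Of 7 hepatocyte markers, 4 had a lower and 3 a higher mean in TLR3-/- livers (median -0.0057), with Tat at -0.39, Hnf4a at -0.26 and Cyp2e1 at 0.25 (0.14 without TLR3wt replicate 3), and 0 passed limma (2 at an unadjusted p under 0.05, against 14.5% of all tested probe sets). Of 5 endothelial markers, 3 were lower and 2 higher (median -0.045, or -0.12 without TLR3wt replicate 3, when all 5 were lower), with Lyve1 at -0.56, Pecam1 at -0.24 and Stab2 at -0.045, and 0 passed limma (2 at an unadjusted p under 0.05, against 14.5%). Of 5 red cell markers 2 were tested, Alas2 and Slc4a1, with overlapping groups and lower means in TLR3-/- livers, and 0 passed limma (0 at an unadjusted p under 0.05, against 14.5%). Alas2 had a log2 difference of -0.22. Slc4a1 was at the floor in all 3 TLR3-/- livers and in TLR3wt replicate 1, and had 5.31 and 5.69 in TLR3wt replicates 2 and 3, so the size of its difference is not given.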
